A study of Bos taurus with 6 samples.

Results

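The genes described here form the glutathione, thioredoxin and antioxidant system of bovine granulosa cells, the cells that line the ovarian follicle and make estradiol. They were chosen by gene symbol from the deposited expression table, with 44 genes named for cysteine and glutathione synthesis, glutathione transferases and peroxidases, peroxiredoxins, thioredoxins, superoxide dismutases, catalase, and the regulator NRF2 with some of its targets. Of these 44 genes, 42 were measured, among 24415 transcript clusters in all, a cluster being the group of probes that reads a gene or a stretch of it. GSR and SOD2 are not analysed here. Each gene is represented by 1 cluster, and FTL by a cluster that is listed with a further locus as well. For CTH the cluster listed for it alone was used, although a second one, listed with another locus, had a slightly higher mean.

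Primary granulosa cells were aspirated from small and medium bovine follicles, stored frozen, thawed and kept without serum for 4 d on collagen-coated plates. FSH, IGF1 and androstenedione were given to all cultures, and sodium selenite, transferrin and insulin were part of the medium. On day 2, cultures were exposed for 2 h to 50 μM PD98059, which blocks the kinase MEK and thereby the phosphorylation of ERK, or to the vehicle DMSO, and the medium was then exchanged, only in part according to the labels. Each group had 3 cultures, and their RNA was measured on 6 Affymetrix arrays. Whether these cultures came from separate animals or cell pools is not stated, so p-values measure only the spread between these cultures, and fewer cells of a type cannot be told apart from less RNA per cell.

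Glutathione is a tripeptide of glutamate, cysteine and glycine and the most abundant small thiol of animal cells. Its cysteine is imported, mostly as cystine, or made from methionine through transsulfuration, and glutathione is then used by peroxidases to reduce hydroperoxides and by transferases to conjugate electrophiles. The thioredoxin system is a parallel path, in which thioredoxin reductase passes electrons from NADPH to thioredoxin and on to the peroxiredoxins. NRF2, encoded by NFE2L2 and held in check by KEAP1, is the transcription factor best known for inducing genes of both systems. In the follicle, granulosa cells take up steroid synthesis, whose mitochondrial electron transfer is a source of oxidants.

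All values are log2 RMA values, so a difference of 1 is a doubling, and all differences are PD98059 minus DMSO. A gene was called at a Benjamini-Hochberg adjusted p under 0.05 from limma, a moderated linear model fitted over all clusters, together with a fold above 1.4, which is 0.485 on the log2 scale. The 95% confidence intervals are from the same fit.

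PD98059 changed 7 of the 42 antioxidant genes past both limits (16.7%), while 2.69% of all 24415 clusters and 4.07% of the 15300 clusters above the background level were called. GCLC, VNN1 and GPX3 were up-regulated (3 of 42, against 0.909% of all clusters and 1.33% of those above background). CTH, CBS, GPX8 and SOD3 were down-regulated (4 of 42, against 1.78% and 2.73%). A further 7 genes passed the adjusted p alone, inside the fold limit, which made 14 of 42 (33.3%) against 4.55% of all clusters and 6.90% of those above background. Of the 14, 5 were higher, against 1.72% of all clusters and 2.54% of those above background, and 9 were lower, against 2.82% and 4.36%. The other 28 genes ranged from −0.36 to 0.26 in log2 fold change. The median over the 42 genes was 0.01, and that of all clusters 0.013. All 42 genes had mean values above the background level of log2 3.72, so none was left out or carried by a filter on low values.

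**Figure D1:**
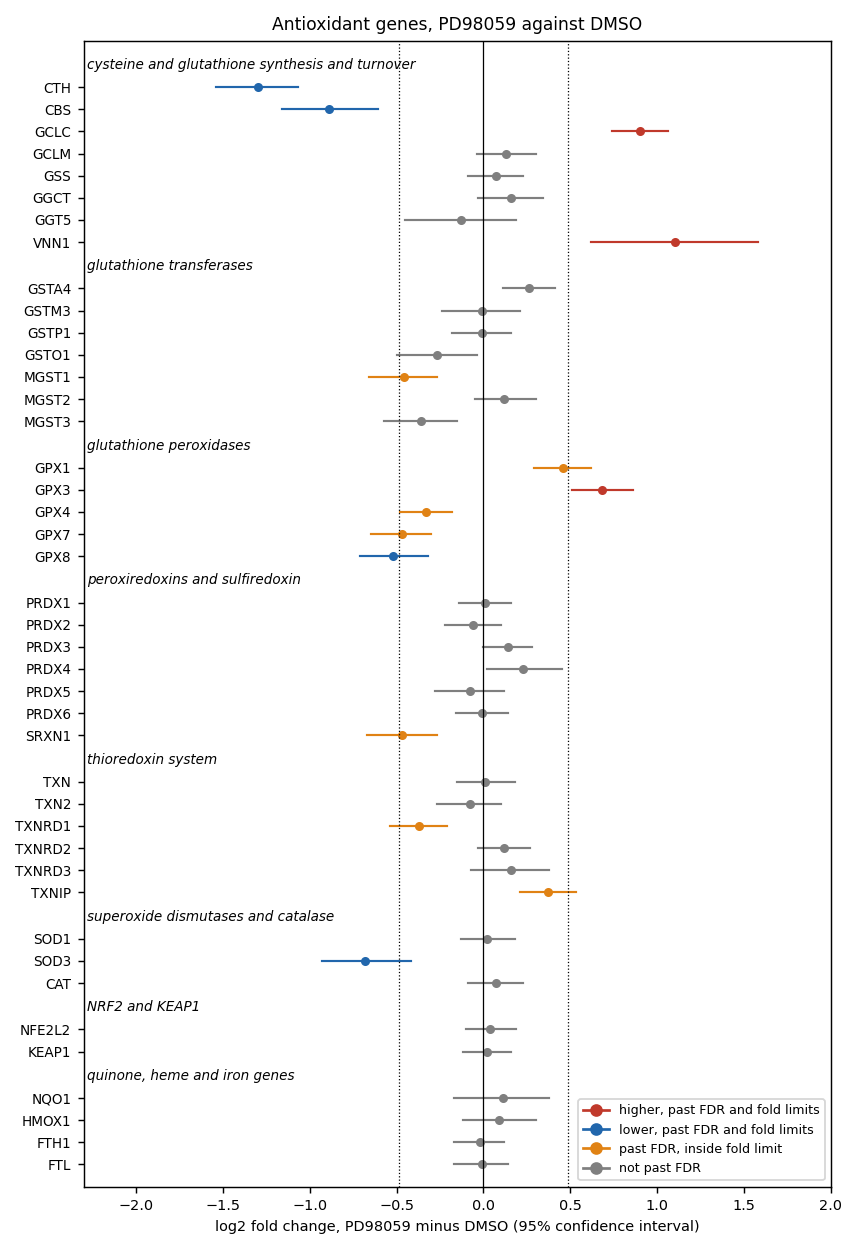
Log2 fold change (PD98059 minus DMSO, x axis) of the 42 measured antioxidant genes, in blocks by role, with points for the estimate and bars for the 95% confidence interval from limma with 3 arrays per group. Dotted lines mark the fold limit of 1.4. The 3 genes in red and the 4 in blue passed both limits, and the largest differences are those of CTH at −1.30 and VNN1 at 1.1.

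CTH and CBS, the pair of transsulfuration enzymes that turn homocysteine into cysteine, were down-regulated in the PD98059-treated cells. CTH, cystathionine gamma-lyase, which releases cysteine in the last step of transsulfuration, had values of 6.32, 6.36 and 6.43 in the DMSO cultures and 5.21, 4.88 and 5.11 in the PD98059 cultures. The groups lay far apart, with all treated cultures below all controls. CTH fell by 1.30 on the log2 scale, or 2.47-fold (standard error 0.10, limma adjusted p = 0.00269). A second cluster, listed for CTH together with another locus, fell by 1.55 (standard error 0.27, adjusted p = 0.0284), with values of 6.65, 6.57 and 6.58 in the controls and 5.70, 4.53 and 4.91 in the treated cultures, of which PD98059 replicate 1 was the least reduced.

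CBS, cystathionine beta-synthase, which feeds CTH by joining homocysteine to serine, had values of 7.05, 6.86 and 7.14 with DMSO and 6.22, 6.24 and 5.93 with PD98059. It fell by 0.89, or 1.85-fold (standard error 0.12, adjusted p = 0.0112), again with no overlap between the groups. The call of CTH held with each array left out in turn. That of CBS was lost without DMSO replicate 1 (adjusted p = 0.0587) or DMSO replicate 3 (adjusted p = 0.0503) and with the unmoderated test (adjusted p = 0.063). It was also lost with the replicate number as a block (adjusted p = 0.0694). The log2 fold changes of CBS were −0.79 to −0.97 over all settings.

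The ligation of cysteine to glutamate showed the opposite change in its catalytic subunit. GCLC, the catalytic subunit of glutamate-cysteine ligase, which is rate-limiting for glutathione, had values of 9.53, 9.58 and 9.67 in the controls and 10.48, 10.48 and 10.51 in the treated cultures. It rose by 0.90, or 1.86-fold (standard error 0.07, 95% interval 0.74 to 1.06, adjusted p = 0.00269), and its call held in all alternatives. GCLM, the regulatory subunit of the same enzyme, had values of 7.44, 7.34 and 7.42 with DMSO and 7.56, 7.44 and 7.58 with PD98059, and the groups overlapped. Its log2 fold change of 0.13 had a 95% interval of −0.04 to 0.30, all of which lies below the interval of GCLC; the difference between the subunits was not itself tested.

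Glutathione synthetase and the gamma-glutamyl enzymes GGCT and GGT5 were not called. GSS, glutathione synthetase, which adds glycine, had values of 7.73, 7.66 and 7.79 with DMSO and 7.77, 7.84 and 7.79 with PD98059, a log2 fold change of 0.07 (adjusted p = 0.614). GGCT, which splits gamma-glutamyl amino acids, stood at 4.49, 4.53 and 4.31 in the controls and 4.62, 4.59 and 4.59 in the treated cultures (log2 fold change 0.16, adjusted p = 0.341). GGT5, a gamma-glutamyl hydrolase of the cell surface, overlapped between the groups at a log2 fold change of −0.13. None of these enzymes passed the test, although the treated values of GGCT lay above all its controls.

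VNN1, a membrane-bound pantetheinase that sets free cysteamine and pantothenate, had values of 4.78, 4.14 and 4.91 in the controls and 5.56, 5.85 and 5.71 in the treated cultures. It rose by 1.1, or 2.14-fold (standard error 0.20, adjusted p = 0.0328), the widest standard error among the 7 called genes. DMSO replicate 2 was low and spread the control group. The unmoderated test did not call it (adjusted p = 0.133), nor did the fit with the replicate number as a block (0.103). Neither did the fit without DMSO replicate 1 (adjusted p = 0.089) or 3 (0.0552), or without PD98059 replicate 1, 2 or 3 (0.0767, 0.112 and 0.103). VNN2, its neighbour in the RefSeq gene order and a relative by sequence, stood at −0.27 (adjusted p = 0.322). None of the genes next to the 7 called ones in that order was called, CDC20B beside GPX8 having no named cluster.

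**Figure D2:**
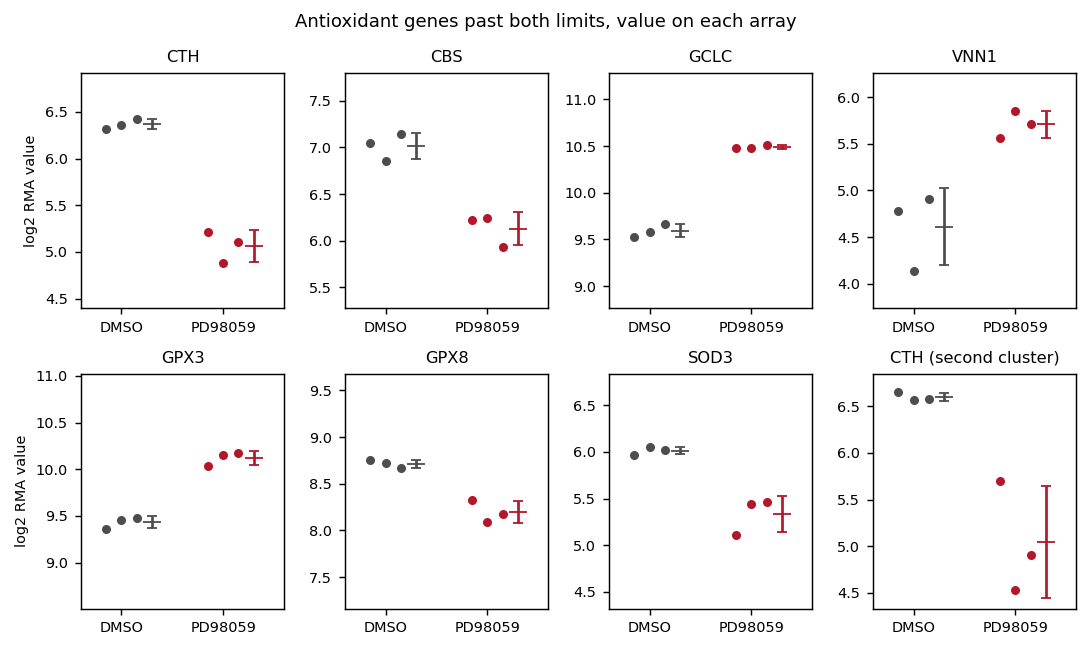
Log2 RMA value (y axis) on each array for the 7 antioxidant genes past both limits and for the second cluster of CTH, with grey points for the 3 DMSO cultures and red points for the 3 PD98059 cultures. Bars give the mean and SD of each group, and all panels span the same log2 range. No panel has overlapping groups, and the widest spreads are those of VNN1 with DMSO and of the second CTH cluster with PD98059.

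Carriers of cystine and related amino acids were examined together with enzymes of sulfur amino acid metabolism in a list of 17 genes, of which 15 were measured, the list having been written with earlier results of these data known. The 4 carriers were all lower past both limits, and the 11 enzymes were not called, with a median log2 fold change of −0.09 over the 15. Lower calls made up 1.78% of all clusters and 2.73% of those above background. SLC7A11, the cystine-glutamate exchanger xCT, had values of 7.27, 7.19 and 7.32 with DMSO and 6.51, 6.40 and 6.36 with PD98059. It fell by 0.84 (standard error 0.07, adjusted p = 0.00357), and the groups did not overlap. Its partner chain SLC3A2, needed at the membrane by several amino acid exchangers, fell by 0.66 (standard error 0.08, adjusted p = 0.00907) from 8.93, 8.82 and 8.86 to 8.33, 8.12 and 8.17.

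Both chains of the cystine exchanger were thus lower in every treated culture, although SLC3A2 was not called without DMSO replicate 1. The neutral amino acid carrier SLC1A5, best known for glutamine, fell by 1.24 (standard error 0.08, adjusted p = 0.00194) from 7.28, 7.06 and 7.25 to 5.98, 5.89 and 6.01. SLC1A4, a carrier of alanine, serine and cysteine, had values of 8.20, 8.21 and 8.25 with DMSO and 7.41, 7.08 and 7.12 with PD98059 (log2 fold change −1.02, adjusted p = 0.00477). The methionine cycle genes upstream of CBS were not called, with MAT2A, which makes S-adenosylmethionine, at −0.02 and AHCY, which yields homocysteine, at 0.08.

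CHAC1, which degrades glutathione inside the cell, was the 1 gene called among 12 further genes of glutathione turnover. Of all clusters 2.69% were called, and of those above background 4.07%. The values of CHAC1 were 7.37, 7.30 and 7.38 in the controls and 6.26, 5.89 and 5.90 in the treated cultures. It fell by 1.33 (standard error 0.11, adjusted p = 0.00323). For CHAC2, the second enzyme of this kind, the log2 fold change was −0.08 (adjusted p = 0.695). Among the 5 lower genes of both lists, PD98059 replicate 1 was the least reduced treated culture in 4 (80.0%), against 41.9% of all 434 clusters that were lower. Every one of the 5 was also lower without that array.

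**Figure D3:**
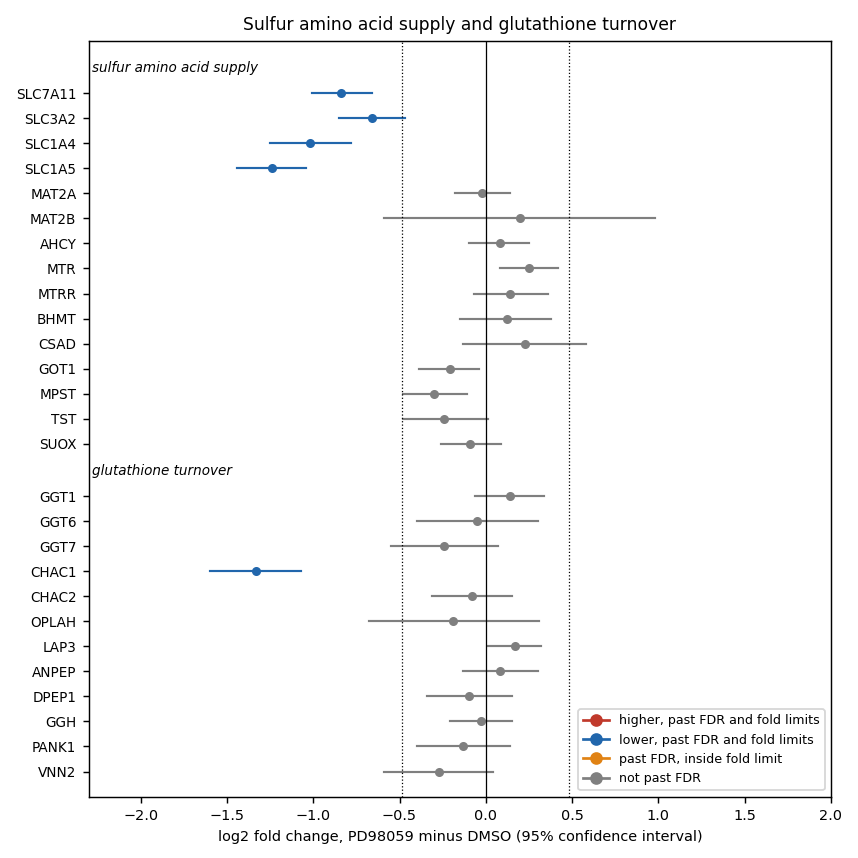
Log2 fold change (PD98059 minus DMSO, x axis) with its 95% confidence interval for the measured genes of sulfur amino acid supply (15) and of glutathione turnover (12), from limma with 3 arrays per group. Dotted lines mark the fold limit of 1.4. The 4 carriers SLC7A11, SLC3A2, SLC1A4 and SLC1A5 and the enzyme CHAC1 stand to the left of it, and the remaining genes were not called.

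The 5 glutathione peroxidases among the 42 genes, which reduce hydroperoxides, all passed the adjusted p in the fit of all 6 arrays. The share was 4.55% of all clusters and 6.90% of those above background. The 5 genes went both ways, 2 higher and 3 lower, though only GPX3 and GPX8 also exceeded the fold limit. With each array left out in turn, GPX3 alone kept its adjusted p under 0.05 every time. GPX3, the secreted form found in plasma and follicular fluid, had values of 9.36, 9.46 and 9.48 with DMSO and 10.03, 10.15 and 10.17 with PD98059. It rose by 0.68, or 1.61-fold (standard error 0.07, adjusted p = 0.00614), a call that held in all alternatives. GPX1, the general enzyme of the cytosol, stood at 10.60, 10.60 and 10.73 in the controls and 11.06, 11.09 and 11.15 in the treated cultures. The increase of 0.46 on the log2 scale (standard error 0.07, adjusted p = 0.0191) lay just inside the fold limit, and the groups did not overlap. Without DMSO replicate 3 GPX1 passed both limits (0.50, adjusted p = 0.0481). Without any other 1 array it did not pass the adjusted p (0.055 to 0.0873).

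GPX8, an endoplasmic reticulum form that carries cysteine in place of selenocysteine, had values of 8.75, 8.72 and 8.67 with DMSO and 8.33, 8.09 and 8.17 with PD98059. It fell by 0.52, or 1.43-fold (standard error 0.08, adjusted p = 0.0206). GPX7, of the same compartment and also without selenocysteine, had 8.95, 9.03 and 9.05 in the controls and 8.57, 8.60 and 8.44 in the treated cultures, a log2 fold change of −0.47 (adjusted p = 0.0194). The 2 endoplasmic reticulum forms were thus lower by similar amounts on either side of the fold limit, with 95% intervals of −0.71 to −0.32 for GPX8 and −0.65 to −0.30 for GPX7.

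GPX4, which reduces lipid hydroperoxides within membranes and protects cells from ferroptosis, had values of 10.63, 10.65 and 10.58 with DMSO and 10.32, 10.30 and 10.25 with PD98059. Its log2 fold change was −0.33 (adjusted p = 0.0369), inside the fold limit, so the selenium-dependent forms GPX1, GPX3 and GPX4 did not share a direction. The call of GPX8 was lost without any 1 array other than PD98059 replicate 1 (adjusted p up to 0.0911) and with the unmoderated test (0.0609). It was also lost with the replicate number as a block (0.0709). With the array medians centred, GPX7 passed both limits as well, at −0.51. With any 1 array left out, neither GPX7 (0.0571 to 0.0825) nor GPX4 (0.0872 to 0.131) passed the adjusted p. The further peroxidases GPX2 (−0.14, adjusted p = 0.746) and GPX6 (−0.30, adjusted p = 0.372) were near background and did not pass the test.

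**Figure D4:**
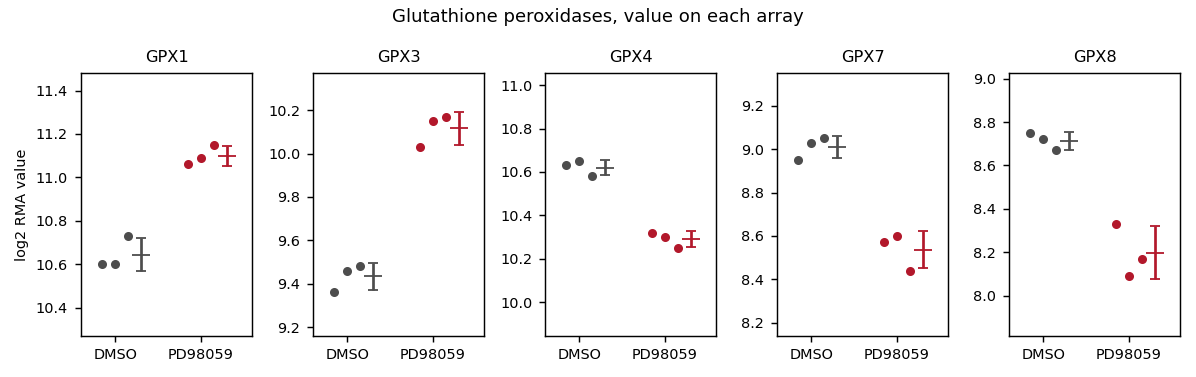
Log2 RMA value (y axis) of the 5 glutathione peroxidases on each array, with grey points for the 3 DMSO cultures, red points for the 3 PD98059 cultures, and bars for the mean and SD of each group. GPX1 and GPX3 are higher in every treated culture, and GPX4, GPX7 and GPX8 are lower in every treated culture.

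Of 24 measured genes of other selenoproteins and of selenium handling, LRP8 was called higher and SELENOM lower, and 22 were not called. The share called was 2.69% over all clusters and 4.07% over those above background. LRP8, a lipoprotein receptor that also takes up selenoprotein P in mouse brain and testis, had values of 7.47, 7.57 and 7.68 with DMSO and 8.73, 8.81 and 8.82 with PD98059 (log2 fold change 1.21, adjusted p = 0.00166). SELENOM, a thiol oxidoreductase of the endoplasmic reticulum, fell by 0.62 (adjusted p = 0.00832) from 9.34, 9.27 and 9.35 to 8.80, 8.65 and 8.65. It was not called with the replicate number as a block. In 10 of the 24 genes all treated cultures lay below all controls and in 2 above, while 13.0% and 12.6% of all clusters, and 18.3% and 15.6% of those above background, separated in these directions. SELENOP, the selenium carrier itself, was 1 of the 2 higher ones at 0.48 (adjusted p = 0.0542), and the median over the list was −0.11.

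None of the 7 glutathione transferases passed both limits. MGST1, a membrane-bound transferase with peroxidase activity, had values of 8.82, 8.70 and 8.63 with DMSO and 8.34, 8.16 and 8.26 with PD98059, a difference of −0.46 (standard error 0.08, adjusted p = 0.0304) that lay inside the fold limit. With any 1 array left out it did not pass the adjusted p (0.0605 to 0.109). MGST3, of the same membrane family, had −0.36 (adjusted p = 0.0764), while MGST2 had 0.12 (adjusted p = 0.414). GSTA4, which conjugates the lipid peroxidation product hydroxynonenal, stood at 8.75, 8.86 and 8.77 in the controls and at 9.06, 9.04 and 9.06 in the treated cultures. The groups of GSTA4 did not overlap, but its log2 fold change of 0.26 did not pass the test (adjusted p = 0.0798).

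GSTP1, a widely expressed cytosolic transferase, had 11.01, 10.89 and 10.93 with DMSO and 10.99, 10.86 and 10.95 with PD98059, a log2 fold change of −0.01 (95% interval −0.18 to 0.16). The cluster listed as GSTP1 carries an accession that RefSeq now places at a locus with GSTP1 as a synonym. GSTM3 had −0.01 and GSTO1, a thioltransferase, −0.27 (adjusted p = 0.188). Among 18 further measured genes of transferases, their relatives and exporters of conjugates, none was called, and GSTA2, an alpha-class enzyme, had the only adjusted p under the limit, at 0.43 (adjusted p = 0.0257). Transferases of one class are similar in sequence, so their clusters can share signal.

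The peroxiredoxins, which remove hydrogen peroxide with electrons from thioredoxin, were not called. The log2 fold changes of the 6 genes ran from −0.08 for PRDX5 to 0.23 for PRDX4. PRDX1 of the cytosol had 10.44, 10.40 and 10.39 with DMSO and 10.40, 10.38 and 10.48 with PD98059, a log2 fold change of 0.01 with a 95% interval of −0.14 to 0.16. PRDX2 had 10.98, 11.12 and 11.04 against 10.99, 11.01 and 10.96, a log2 fold change of −0.06 with a 95% interval of −0.22 to 0.10. The groups of both genes overlapped.

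SRXN1, sulfiredoxin, which restores overoxidized peroxiredoxins, differed from them. Its values were 6.33, 6.10 and 6.34 in the controls and 5.79, 5.81 and 5.76 in the treated cultures, without overlap. The difference of −0.47 (standard error 0.08, adjusted p = 0.0314) lay inside the fold limit. It passed both limits without DMSO replicate 2 (−0.55) and with the array medians centred (−0.50). Without any other 1 array SRXN1 did not pass the adjusted p (0.0887 to 0.118). Neither did it with the unmoderated test (0.0827) or the replicate number as a block (0.103).

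In the thioredoxin system, the cytosolic reductase was lower and the inhibitor higher at the adjusted p, both inside the fold limit. TXNRD1, the cytosolic thioredoxin reductase, had 8.54, 8.52 and 8.62 with DMSO and 8.25, 8.13 and 8.18 with PD98059, a difference of −0.37 (standard error 0.07, adjusted p = 0.0328). TXNIP, the arrestin-like protein that binds and blocks thioredoxin, had 9.87, 9.85 and 9.83 in the controls and 10.14, 10.28 and 10.23 in the treated cultures, a difference of 0.37 (standard error 0.07, adjusted p = 0.0326). For both genes the groups did not overlap. TXNRD1 did not pass the adjusted p without DMSO replicate 1, 2 or 3 or PD98059 replicate 1 (0.0684 to 0.115). Nor did it with the replicate number as a block (0.105). For TXNIP the adjusted p rose as far as 0.113 with 1 array left out.

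Thioredoxin itself, TXN, had values of 9.93, 10.05 and 9.89 with DMSO and 9.95, 9.97 and 9.99 with PD98059, a log2 fold change of 0.01 (95% interval −0.15 to 0.18). Its mitochondrial form TXN2 had −0.08, the mitochondrial reductase TXNRD2 0.12 and TXNRD3 0.16, and none passed the test. Of 25 further measured thiol redox genes, 1 was called higher and 1 lower, while 2.69% of all clusters and 4.07% of those above background were called. ARRDC4, the closest relative of TXNIP among the arrestin-like proteins, rose by 0.60 (standard error 0.06, adjusted p = 0.00526) from 8.36, 8.37 and 8.36 to 8.97, 9.0 and 8.93. SESN2, a stress-induced protein of the sestrin family, fell by 0.87 (standard error 0.09, adjusted p = 0.00551) from 7.21, 7.18 and 7.27 to 6.52, 6.30 and 6.24. Without PD98059 replicate 1, 4 genes of this list were called in place of 2.

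Of the superoxide dismutases and catalase, the extracellular dismutase was called and SOD1 and CAT were not. SOD3, which is secreted and binds to heparan sulfate on cell surfaces and matrix, had values of 5.97, 6.05 and 6.02 with DMSO and 5.11, 5.44 and 5.46 with PD98059. It fell by 0.68, or 1.6-fold (standard error 0.11, adjusted p = 0.0201), and PD98059 replicate 1 was the lowest culture. SOD1 of the cytosol had 8.97, 9.02 and 8.92 against 9.02, 9.01 and 8.95 (log2 fold change 0.02, 95% interval −0.13 to 0.18). CAT, the catalase of peroxisomes, had 8.74, 8.66 and 8.77 against 8.75, 8.85 and 8.78 (log2 fold change 0.07, adjusted p = 0.635). With the unmoderated test SOD3 was not called (adjusted p = 0.0837), nor without DMSO replicate 1, 2 or 3 (0.0756, 0.0754 and 0.0818) or PD98059 replicate 2 (0.0556). Its call was also lost with the replicate number as a block.

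NRF2, KEAP1 and the quinone, heme and iron genes did not pass the test, while other genes known as NRF2 targets went both ways. Of these, GCLC was higher and SLC7A11 lower past both limits, and TXNRD1 and SRXN1 were lower at the adjusted p, as given above. NFE2L2, the NRF2 gene, had values of 9.53, 9.53 and 9.49 with DMSO and 9.58, 9.54 and 9.56 with PD98059, a log2 fold change of 0.04 (95% interval −0.10 to 0.19). KEAP1, which targets NRF2 for degradation, had 7.99, 7.96 and 8.02 against 8.0, 8.02 and 8.01, a log2 fold change of 0.02. The protein and location of NRF2, on which its activity mainly depends, are not measured by these arrays.

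NQO1, a quinone reductase commonly used as a readout of NRF2, had 5.96, 5.96 and 5.81 with DMSO and 6.25, 5.94 and 5.86 with PD98059, a log2 fold change of 0.11 (95% interval −0.17 to 0.38). HMOX1, the inducible heme oxygenase, stood at 0.09 (adjusted p = 0.646). The ferritin chains, which store iron, overlapped between the groups. FTL stood at 11.78, 11.79 and 11.88 in the controls and 11.79, 11.78 and 11.84 in the treated cultures (log2 fold change −0.01), and FTH1 at 9.35, 9.38 and 9.36 against 9.33, 9.33 and 9.36 (−0.02).

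A list of 27 further NRF2 targets and regulators, which holds none of those 4 genes, gave no call in either direction, with a median log2 fold change of −0.07. Among them were PGD at −0.02 and ME1 at 0.13, which yield NADPH, and the adaptor SQSTM1 at −0.10. NFE2L1, the NRF1 gene and a relative of NRF2, alone had an adjusted p under the limit (0.35, adjusted p = 0.0316). BACH1, a repressor at the same DNA elements, had −0.40 (adjusted p = 0.0623). Across 11 genes of iron handling none was called, and HMOX2, the constitutive heme oxygenase, had −0.37 (adjusted p = 0.027).

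**Figure D5:**
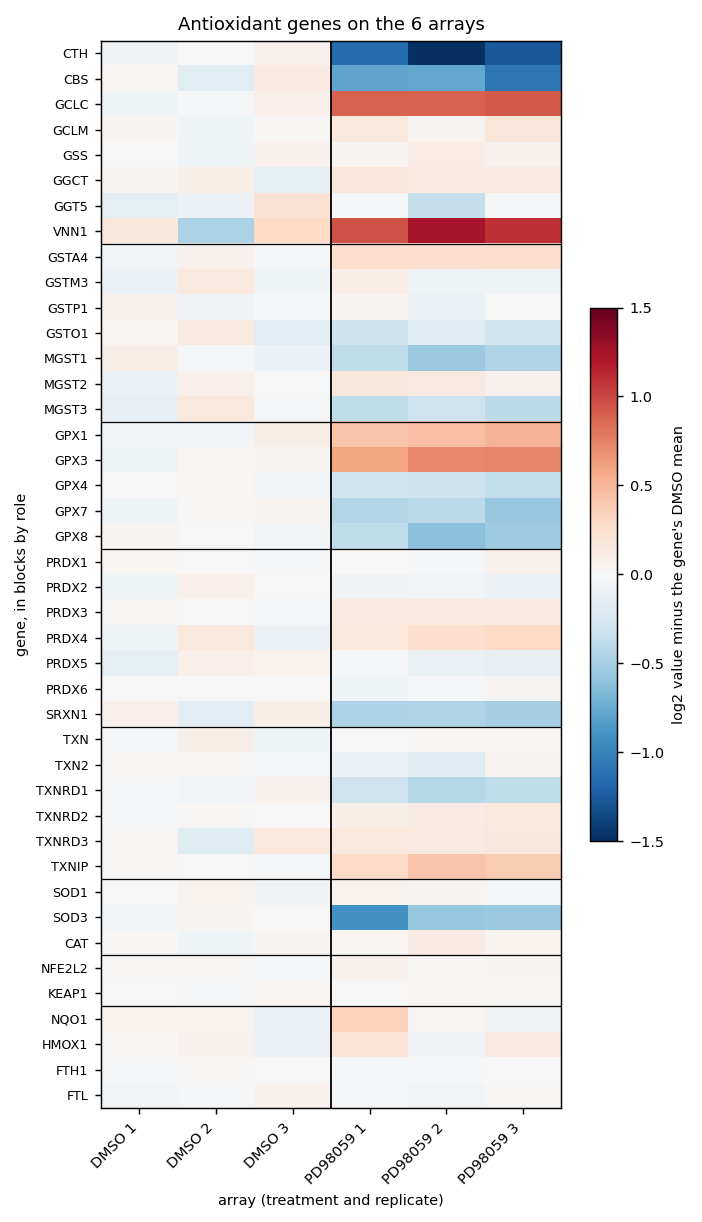
Log2 value of each antioxidant gene minus its DMSO mean (colour) on the 6 arrays (columns, by treatment and replicate), with the 42 genes as rows in blocks by role. The treated columns are blue for CTH, CBS, MGST1, GPX7, GPX8, SRXN1 and SOD3 and red for GCLC, VNN1, GPX1 and GPX3, with paler shades for smaller differences. The rows of NFE2L2, KEAP1, FTH1 and FTL are nearly white on all arrays.

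Among 25 genes of enzymes that make or pass on oxidants, 2 were called higher and 1 lower, and 10 lay near background. The share called was 2.69% over all clusters and 4.07% over those above background. NOS2, the inducible nitric oxide synthase, rose by 0.96 (standard error 0.09, adjusted p = 0.00477) from 6.44, 6.45 and 6.52 to 7.25, 7.53 and 7.5. FDXR, which passes electrons from NADPH to the mitochondrial P450 enzymes of steroid synthesis, rose by 0.50 (standard error 0.06, adjusted p = 0.0112). Its values went from 7.47, 7.47 and 7.56 to 8.03, 7.99 and 7.97. FDX1, its electron acceptor, had 0.41 (adjusted p = 0.0176), inside the fold limit. XDH, xanthine dehydrogenase, fell by 0.60 (adjusted p = 0.0117) from 4.69, 4.69 and 4.78 to 4.09, 4.03 and 4.24. FDXR was not called without DMSO replicate 1 or 2 or PD98059 replicate 1 or with the array medians centred. XDH was not called without DMSO replicate 1 or 3. With the replicate number as a block, neither FDXR nor XDH was called.

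Over the 42 antioxidant genes, 21 had treated cultures wholly on one side of the controls, 10 above and 11 below. This is 50.0%, against 25.5% of all clusters and 33.9% of those above background (15.6% higher and 18.3% lower). The median SD of these genes within a group was 0.06 with DMSO and 0.05 with PD98059. Over all clusters the median SD within groups, pooled over both groups, was 0.124. These genes thus varied less between cultures than the typical cluster. The part of this in their shares of calls and of separated groups was not tested. The array medians lay between 4.68 and 4.74.

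The cultures carried the markers of granulosa cells, most of which were higher with the treatment. Of 14 such markers all were above background, and 9 were called higher and none lower. Higher calls made up 0.909% of all clusters and 1.33% of those above background. The mean level of the markers was 8.03 to 8.13 over the DMSO arrays and 8.72 to 8.79 over the PD98059 arrays. The other 5 markers ranged from −0.04 for GATA4 to 0.43 for NR5A2. The calls of ESR2, HSD17B1 and FOXL2 were lost in 8, 6 and 5 of 14 alternatives. Of 12 markers of fibroblasts and smooth muscle only 1 was near background, and 3 were called lower (PDGFRA, PDGFRB and CNN1) and none higher. COL1A1 was lower at the adjusted p inside the fold limit (−0.46, adjusted p = 0.0464). The mean level over the 12 markers was 7.20 to 7.30 with DMSO and 7.05 to 7.11 with PD98059. This list went both ways, with treated cultures wholly above the controls for MYH11 (0.62, adjusted p = 0.0694) and COL3A1 (0.20, adjusted p = 0.273), and the call of CNN1 was lost in 8 of 14 alternatives. The part of these shifts in the results for the antioxidant genes was not tested.

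Markers of blood and vessel cells were mostly near background. All 5 measured erythrocyte markers were near background, and so were 7 of 12 leukocyte markers and 5 of 7 endothelial markers. None of the erythrocyte or leukocyte markers was called, and of the endothelial ones VWF was lower, a call lost in 7 of 14 alternatives. Of 7 theca markers 2 were near background, GLI1 and CYP17A1, the enzyme that defines these cells. INSL3, LHCGR, STAR, HSD3B1 and PTCH1 were above it, LHCGR only slightly (means of 3.87 with DMSO and 4.04 with PD98059). STAR and HSD3B1 also serve progesterone synthesis in granulosa cells, so they do not mark theca cells alone. INSL3 was called higher and none lower, and PTCH1 passed the adjusted p inside the fold limit (0.39, adjusted p = 0.0258).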

How the data were processed

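Array images were corrected for background and normalized by the authors in Expression Console, and each transcript cluster was summarized with RMA. The deposited values are these log2 RMA values, and both deposited tables hold the same 146490 of them. No source used here gives the genome build behind the clusters. No values or sequences of probes were used, and no column was left unmatched. The joint normalization hides any change that most transcripts have in common. The labelling is described as starting from the 3′ end, although the probes lie along the whole transcript.

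A cluster stood for a gene when the table lists it under that symbol, and for FTL when its accessions lead to that gene alone in RefSeq (ARS-UCD2.0). Genes of other lists were named through these accessions, or else by a single symbol. GSR and SOD2 had no such cluster. The background level, log2 3.72, is the 95th percentile of the mean values of 377 olfactory receptor clusters.

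All 24415 clusters entered 1 limma fit (version 3.58.1, R 4.3.3) with eBayes moderation, on 2.8 prior and 4 residual degrees of freedom, which was tested on simulated data. Its standard errors had a median of 0.098 on the log2 scale, a precision limited by the number of arrays. Summaries used Python 3.11.15 with pandas 2.3.3 and numpy 2.4.6. The paper names an ANOVA in other software without saying whether variances were moderated, and an unmoderated ANOVA was run as an alternative. The fit was also repeated with the replicate number as a block, centred array medians, a repeated quantile normalization, a filter at the background level, a variance trend, array weights, the adjusted p alone, 1 cluster per gene, the other cluster of CTH, and each array left out.

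Genes and lists were chosen with earlier results of these data known. Values per array are given for every called gene and, in each role, for the 2 genes of highest level and the largest difference that was not called, and from each related list for up to 5 called genes. GCLM, as the partner of GCLC, and other genes named singly were chosen after their values were seen.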

Additional observations from a re-analysis of the deposited data

How the results depend on the processing

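CTH, GCLC and GPX3 were called in every alternative run and with each array left out. The count of 7 antioxidant genes (3 higher, 4 lower) lay between 3 and 6 with 1 array left out (2 to 3 higher and 1 to 4 lower). It was 3 with an unmoderated ANOVA (2 higher, 1 lower), which gave 7 at its unadjusted threshold with the fold limit. The adjusted p alone gave 14 (5 higher, 9 lower), and centring on the array medians gave 7 lower genes with MGST1, GPX7 and SRXN1 added. Same-numbered arrays deviated together only weakly (correlations of 0.051, 0.037 and 0.037 over all clusters), against −0.036 to −0.003 for other pairs. The labels give only a number, and correlations this small do not decide whether the cultures were paired. With the replicate number as a block, 3 antioxidant genes were called (2 higher, 1 lower), and 1 gene each among the selenoproteins and the oxidant-producing enzymes.

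Over all clusters, 656 were called (222 higher, 434 lower), against 237 with that block (75 higher, 162 lower), 350 with the unmoderated test (123 and 227), 790 with it at its unadjusted threshold, and 1110 at the adjusted p alone (421 and 689). With 1 array left out the count was 271 to 491 (97 to 160 higher and 174 to 331 lower). The thiol redox list had 2 to 4 calls and the oxidant-producing list 1 to 3 with 1 array left out.

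Of 589 refits of single genes, 545 kept their direction and their call, which takes both limits together. Of the others, 24 lost a call, 5 gained one and 15 changed sign. Most refits were of the 35 genes not called in the main fit, for which keeping the call meant staying uncalled. All 24 lost calls were those of CBS, VNN1, GPX8 and SOD3. These were called in 4, 1, 1 and 2 of 6 fits with 1 array left out. The 15 changes of sign were in genes never called and with values near 0. With centred array medians PRDX1 and TXN stood at −0.02 and SOD1 and KEAP1 at −0.01, and with the repeated quantile normalization GSTM3 at 0.01. With 1 array left out, GSTM3 ran from −0.07 to 0.06, GSTP1 from −0.04 to 0.03, PRDX1 from −0.02 to 0.03, PRDX6 from −0.04 to 0.01, TXN from −0.02 to 0.06, NQO1 from −0.01 to 0.19 and FTL from −0.03 to 0.02. Crossings of the adjusted p alone were not counted, such as those of GPX4 (up to 0.131 with 1 array left out). The cause of these differences was not tested.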
